A study of Mus musculus with 2 samples.

Results

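The genes described here encode the proteins of the cytosolic ribosome. They were taken by symbol, as every row named Rpl or Rps with a number, the 3 P-stalk genes Rplp0, Rplp1 and Rplp2, and Rpsa, without pseudogene symbols and without the S6 kinases. The rule found 86 of the 32285 genes in the matrices, 52 with large subunit symbols and 34 with small subunit symbols. In each cell class a member was kept with at least 20 UMIs (unique molecular identifiers, each standing for 1 captured RNA molecule) over both libraries. This kept 84 members in microglia-like and endothelial-like cells, 82 in fibroblast-like cells and 83 in each of the other 8 classes that were compared. Rps19bp1 is caught by the symbol rule although its protein binds Rps19 and is not part of the ribosome.

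A ribosome is built from a small subunit, which reads the mRNA, and a large subunit, which joins the amino acids. Each ribosomal protein is needed in nearly the same amount, and excess protein that finds no ribosomal RNA is degraded. In mammals the mRNAs of these proteins begin with a C followed by a run of pyrimidines, the 5′ terminal oligopyrimidine (TOP) motif, through which the kinase mTORC1 and the protein Larp1 control their translation. Resting lymphocytes are known to hold much of their mRNA in these transcripts. Why cell classes differ in this was not tested here.

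The series holds 2 single-cell RNA libraries from brains of untreated C57BL/6J mice aged 18 months. The library labelled WT is of wild-type mice, and the library labelled KO is of CD200R1-/- mice, which lack an inhibitory receptor of myeloid cells. The labels give the knockout as the whole animal's genotype, name no promoter or Cre, and do not say how many mice went into a library. CD11b-positive cells were taken from the dissociated brains with magnetic particles before 10x 3′ capture. The series asks about loss of this receptor in brain macrophages and about T cells. With 1 library per group nothing could be checked against a replicate, so differences are given with no test and no p-value. Every difference is between these 2 libraries, and every interval is 95% and covers counting error only.

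The library labelled WT held 18228 barcodes and 127429919 UMIs, and the library labelled KO 19159 barcodes and 131196245 UMIs, with 103 barcode sequences in both. After filters on UMIs, genes and mitochondrial share, 16601 and 17659 cells were kept. Over all barcodes Cd200r1 had 1531 UMIs in the library labelled WT (12.0 per 1000000 UMIs) and 1505 in the library labelled KO (11.5). In the cells named CNS-associated macrophage-like below it had 67 of 1190092 UMIs in WT and 38 of 1213432 in KO. A 3′ tag can lie outside the deleted part of a gene, so these counts do not check the genotype, and WT and KO below are the labels only. Each cell was named from marker UMIs, in which ribosomal genes play no part, and 24.8% and 23.8% of kept cells stayed unnamed, at median depths of 1112 and 1132 UMIs. The selection for CD11b left many cells that lack it as a marker, such as 3327 and 3366 endothelial-like cells beside 6806 and 7158 microglia-like cells. Among the 11 compared classes all listed markers were detected, apart from 1 of 7 olfactory ensheathing markers. The leading genes of the B cell-like class were immunoglobulin chains and Jchain, a gene of antibody-secreting cells that had UMIs in 5 of 110 WT and 4 of 51 KO cells. The B cell marker Ms4a1 had UMIs in 83.6% and 78.4% of them. The sum of rows linked to ribosomal RNA was lower in KO in each compared class, at 0.869% of microglia-like UMIs in WT against 0.520% in KO.

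The start sites are shown first, because the pyrimidine run is what the members are known to share and the rule did not use it. RefSeq windows (GRCm38.p6) around annotated starts were found for 66 of the 86 members. A run of at least 8 pyrimidines beginning with C, within 25 bases of the annotated start, was present in 33 of these members (50%), against 17.57% of 26959 other genes. The lines below give 30 bases, 5′ to 3′ on the gene's strand, with the run in capitals. They are Rpl27a, with a run of 20 bases, and members named in later results. Run lengths vary, the paralogs Rps27 and Rps27l are included, and the last 2 members hold no such run.
Rpl27a, chr7:109519186-109519215, plus strand: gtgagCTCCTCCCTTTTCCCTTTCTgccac
Rpl35, chr2:39005115-39005144, minus strand: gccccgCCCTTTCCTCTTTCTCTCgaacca
Rps12, chr10:23787181-23787210, minus strand: caccgccggCCTTTTCCCCTgccgccgccg
Rps6, chr4:86857349-86857378, minus strand: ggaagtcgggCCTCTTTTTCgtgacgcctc
Rps27, chr3:90213631-90213660, minus strand: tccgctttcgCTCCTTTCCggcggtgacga
Rps27l, chr9:66946054-66946083, plus strand: cccgcctccaCTCCTCTCCactcctccccg
Rpl22l1, chr3:28805500-28805529, plus strand: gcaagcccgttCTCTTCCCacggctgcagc
Rpl38, chr11:114668569-114668598, plus strand: gaagcctcgttCTTTCCCCgttctcttcgg
Rpl27, chr11:101442220-101442249, plus strand: cggaaccggaacgctctgttcctgtctgct
Rplp0, chr5:115559468-115559497, plus strand: gaccgcctggttctcctataaaaggcacac
Annotated starts can lie some bases from the true start, so a missing run says only that these letters are not in this window. A run that is present need not lie at the start of the mRNA, because both sides of the annotated start were searched. Counted from that start, the run began at -22 for Rps27l, wholly before it, and at 8 for Rps12. Over the whole 300-base windows, on both strands, CCGGAA (the core bound by ETS factors) was present in 54.55% of members and 16.57% of other genes. GGGCGG (a GC box) was present in 62.12% and 38.14%, AAGATGG (part of the YY1 motif) in 15.15% and 7.259%, TATAAA in 10.61% and 15.68%, and the NRF1 motif in 3.03% and 1.068%. None of these motifs holds another. The members lie on 19 chromosomes, with 14 on chromosome 7, and GENCODE vM21 lists 298 pseudogenes named for members, 24 each for Rpl31 and Rps12. A copy of nearly the same sequence can take reads from its parent gene, so levels of such members are uncertain.

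Among the compared classes lymphocytes gave the largest part of their transcripts to ribosomal proteins. By UMIs summed over cells, the smallest part was that of astrocyte-like cells in WT and of olfactory ensheathing-like cells in KO. The olfactory ensheathing-like class is weakly named. It held 109 and 80 cells, but only 3 and 2 under stricter naming, and its 10 leading genes included 2 markers of other classes. In T cell-like cells, whose markers include Cd3g and Trbc2, members made up 30.6% of UMIs in WT (30.5 to 30.7) and 28.4% in KO (28.3 to 28.4). B cell-like cells followed with 22.1% in WT and 18.9% in KO. The lymphocyte values stood above those of all other compared classes in both libraries, and the ratio of T cell-like to microglia-like share was 3.1 in WT and 2.69 in KO. Of the 100 most abundant genes in T cell-like cells 73 (WT) and 72 (KO) were members, against 32 and 38 in microglia-like cells. Too few cells for comparison were named dendritic cell-like, yet their shares of 28.5% (36 cells, WT) and 26.6% (37 cells, KO) lay next to those of T cell-like cells.

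Macrophages, vessels and microglia lay close together in the middle of the order. CNS-associated macrophage-like cells held 11.6% in WT and 11.5% in KO. Endothelial-like cells held 10.1% in WT and 10.3% in KO. Microglia-like cells held 9.88% in WT (9.87 to 9.89) and 10.5% in KO (10.5 to 10.5). The order of the last pair changed between the libraries, and single cells overlapped widely: the quartiles of microglia-like cells were 6.89% to 13% in WT and 7.22% to 12.9% in KO. Mural-like cells were at 8.98% and 9.68%, and fibroblast-like cells at 8.18% and 8.0%. The glial and epithelial classes were lower in these summed shares, in which deep cells weigh more. Ependymal-like cells were at 6.50% and 7.59%, choroid plexus-like cells at 6.45% and 6.24%, and olfactory ensheathing-like cells at 5.80% and 5.78%. Astrocyte-like cells, with Aqp4 and Aldoc among their markers, held 5.20% in WT and 6.19% in KO. Neutrophil-like cells (76 and 36 cells) held 4.59% and 4.38%. Medians over single cells gave another order. They were 8.53% in WT and 8.91% in KO for astrocyte-like cells, and 7.96% and 10.4% for ependymal-like cells. Microglia-like cells had medians of 9.49% and 9.69%, and olfactory ensheathing-like cells 5.79% and 5.82%.

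**Figure D1:**
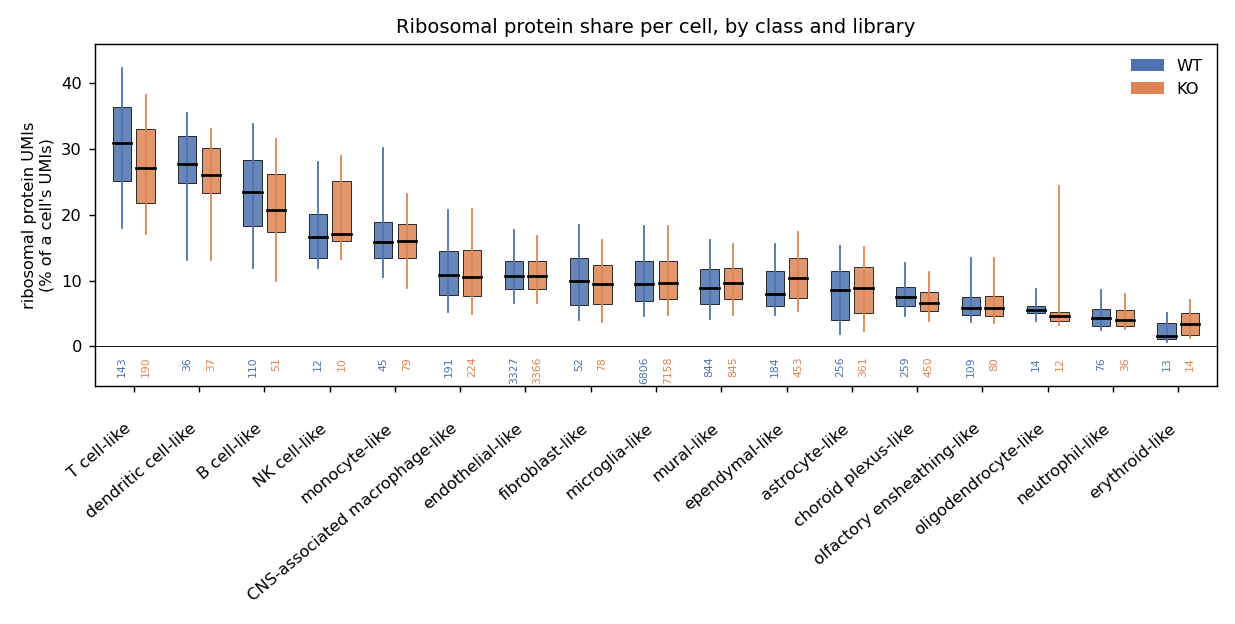
Ribosomal protein UMIs as a percentage of each cell's UMIs, by class (horizontal axis) and library, with boxes for the quartiles, black lines for medians, whiskers from the 5th to the 95th percentile of cells and the number of cells under each box. T cell-like cells stand highest (summed shares of 30.6% in WT and 28.4% in KO), and quartiles of the 2 libraries overlap in each compared class.

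The share also moved with the depth of the cell, in a direction that differed by class. In astrocyte-like cells of 500 to 1500 UMIs it was 11.4% in WT and 11.1% in KO, and in cells of 6000 to 12000 UMIs 3.70% and 5.17%. In astrocyte-like cells of at least 12000 UMIs it was 4.96% and 5.80%. Ependymal-like cells went from 12.4% and 13% in the shallowest cells to 6.15% and 7.06% in cells of at least 12000 UMIs. In endothelial-like cells the shallowest stood at 17.4% and 13.3%. T cell-like cells went the other way, from 29.1% (WT) and 28.6% (KO) at 3000 to 6000 UMIs to 32.3% and 30.7% at 6000 to 12000 UMIs. The shallow glial cells were thus near the level of unnamed cells (10.4% in WT and 11.2% in KO). The part of depth in the differences between classes was not tested.

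**Figure D2:**
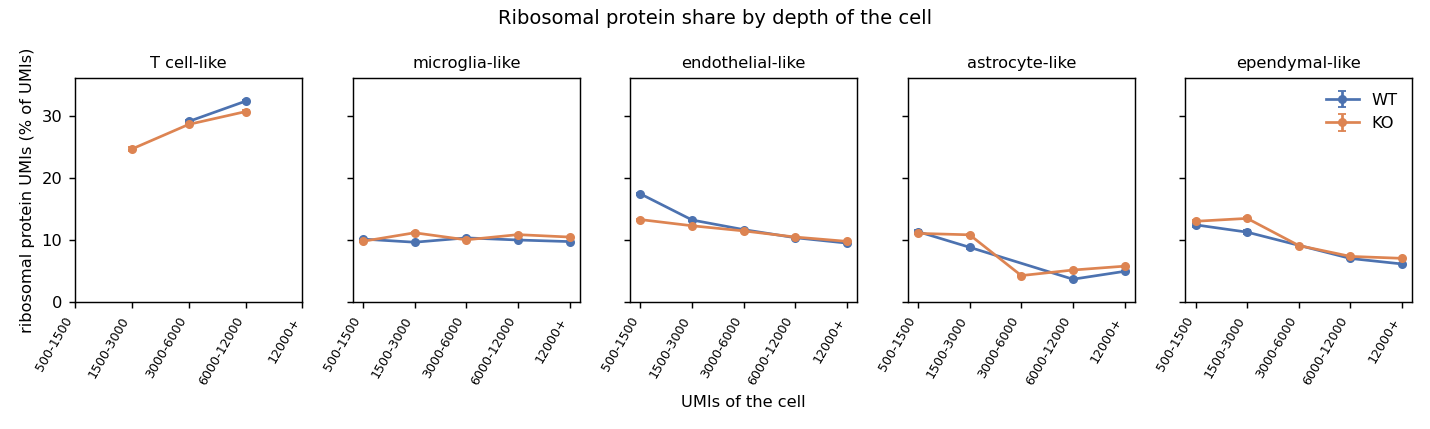
Ribosomal protein share (percent of summed UMIs, vertical axis) in cells grouped by their UMIs (horizontal axis), for 5 classes and both libraries, with 95% counting intervals that are mostly smaller than the points; bands with under 20 cells are left out. Astrocyte-like and ependymal-like cells decline from over 11% in the shallowest cells, while microglia-like cells stay between 9.65% and 11.2%.

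Between the libraries labelled WT and KO the summed share differed by under 20% of its WT value in all 11 compared classes. It was higher in KO in astrocyte-like cells (log2 ratio 0.25, a ratio of 1.19 with an interval of 1.18 to 1.20), ependymal-like cells (0.22), mural-like cells (0.11) and microglia-like cells (0.09). It was lower in KO in B cell-like cells (-0.22, a ratio of 0.858 with an interval of 0.849 to 0.866) and T cell-like cells (-0.11). The other 5 classes lay between -0.05 and 0.03. The median KO cell was shallower in T cell-like cells (3908 against 6257 UMIs) and in ependymal-like cells (2307 against 8495.5 UMIs). In T cell-like cells of 3000 to 6000 UMIs, a range chosen after the data were seen, the log2 ratio was -0.02. In microglia-like cells of that range it was turned, at -0.04. Their share was also lower in KO at 500 to 1500 UMIs (10.2% against 9.80%), and higher in KO in the other 3 bands of depth.

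Microglia are the brain's resident macrophages and the largest class here. A gene was counted as higher in KO when its level was at least 25% above that in WT, and as lower when the level in WT was at least 25% above that in KO. No member passed this threshold in microglia-like cells, 0 of 84 kept in either direction. Over all 17377 genes tested in these cells 2.57% passed it, so the count of members is near what the other genes give. The members shared a small shift: 75 of 84 had a log2 ratio above 0, with a median of 0.11, against a median of 0.00 over all genes tested. All log2 ratios are of counts per 1000000 UMIs (CPM), each plus 10 CPM. The median was between 0.08 and 0.12 under 13 alternatives and -0.04 in cells of 3000 to 6000 UMIs.

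Rplp1, the acidic P-stalk protein that helps recruit elongation factors, was the most abundant member in microglia-like cells over both libraries. It had 3670 CPM in WT and 4062 CPM in KO, a log2 ratio of 0.15. Its stalk partner Rplp2 had 1356 CPM and 1500 CPM (0.14), and Rplp0, the base of the stalk, 967 CPM and 1015 CPM (0.07). All 3 stalk members were higher in KO by less than the threshold of 25%. Because each UMI tags 1 RNA molecule at its 3′ end, these levels need no division by length, though capture can differ between genes.

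Among small subunit members Rps29, a short zinc-binding protein, had 3832 CPM in WT and 3544 CPM in KO, a log2 ratio of -0.11. Rps24 had 2366 CPM and 2676 CPM (0.18), Rps21 2163 CPM and 2185 CPM (0.01) and Rps12 2117 CPM and 2230 CPM (0.07). These 4 and Rplp1 were the 5 highest members, and Rps29 alone among them was lower in KO. Rps6, the target of the S6 kinases, had 715 CPM in WT and 783 CPM in KO (0.13). Rpsa, also known as a precursor of a laminin receptor, had 858 CPM and 921 CPM (0.10). Rps19bp1, the Rps19-binding protein, was among the lowest with 27.2 CPM and 30.8 CPM.

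Among large subunit members the highest log2 ratios were those of Rpl27 (0.22, 791 CPM in WT and 923 CPM in KO) and Rpl9 (0.20, 1141 CPM and 1311 CPM). The lowest of abundant members was Rpl35 (-0.16, 573 CPM and 511 CPM), a protein near the exit of the peptide tunnel. These 3 were chosen after their values were seen. Large and small subunit members moved alike, with medians of 0.10 over 50 and 0.11 over 34 members. The X-linked members Rps4x, Rpl39, Rpl10 and Rpl36a lay at 0.14, 0.06, 0.05 and 0.04. Members with and without the pyrimidine run also had equal medians of 0.10, over 32 and 31 members.

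The rare paralog Rpl39l, which replaces Rpl39 mainly in male germ cells, was the member furthest below in microglia-like cells. It had 249 UMIs in 205 WT cells and 142 UMIs in 128 KO cells, at most 4 in any cell, or 4.87 CPM (4.28 to 5.51) and 2.43 CPM (2.05 to 2.87). The ratio was 0.499 (0.404 to 0.616), and the log2 ratio with 10 CPM added was -0.26, so it was counted as lower only with 1 CPM added. In T cell-like cells it had 7 UMIs in WT and 0 in KO, where 3 counts is the one-sided 95% upper limit that a count of 0 allows. B cell-like and astrocyte-like cells of both libraries had 0. Rpl3l, a paralog of striated muscle, had 11 and 7 UMIs in microglia-like cells and stayed under the minimum in all compared classes. It reached 12 UMIs in 45 monocyte-like cells of WT and 9 in 79 of KO. Rpl10l, the germ-cell copy of X-linked Rpl10, had 0 UMIs in all compared classes.

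**Figure D3:**
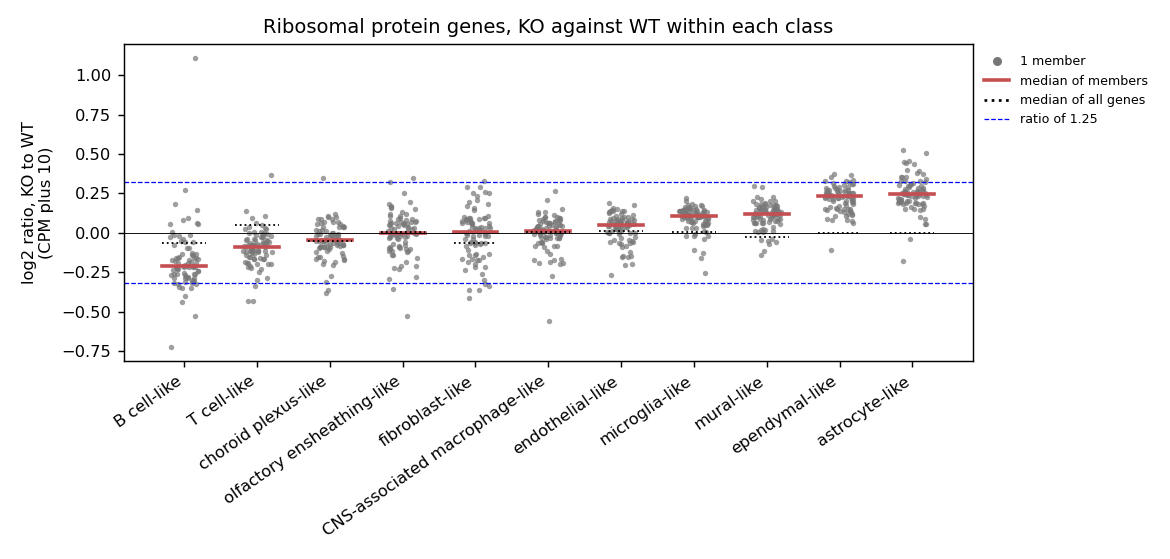
Log2 ratio of KO to WT (CPM plus 10, vertical axis) for each kept member in the 11 compared classes, ordered by the median; red lines are medians of members, dotted lines medians of all genes tested and dashed lines the 25% threshold. Microglia-like members cluster near 0.11, astrocyte-like members near 0.25 and B cell-like members near -0.21.

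In T cell-like cells a member had a median level of 3789 CPM in WT and 3477 CPM in KO, against 1100 and 1151 CPM in microglia-like cells. Rps24 led with 9994 CPM in WT and 9574 CPM in KO, followed by Rplp1 with 7298 CPM and 7295 CPM and Rps27 with 7481 CPM and 6675 CPM. Rps15a (6909 and 6543 CPM) and Rpl13 (6670 and 6319 CPM) came next. The 5 highest members were thus equal or lower in KO by less than the threshold of 25%. Of 83 kept members 70 had a log2 ratio below 0, with a median of -0.09, against a median of 0.05 over all genes tested.

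Past the 25% threshold, 3 of 83 T cell-like members were lower in KO and 1 was higher. Over all 7903 genes tested 12.2% were lower and 18.7% higher, larger shares than among members. Those genes were not matched to the members in abundance, and counting error is larger at low counts. Rpl35 had 1515 CPM in WT and 1119 CPM in KO, a log2 ratio of -0.43. Rps28, a small protein of the head of the small subunit, had 3986 CPM and 2950 CPM (-0.43). Rplp0 had 3412 CPM and 2702 CPM (-0.34), while its stalk partner Rplp1 did not differ. Rps19bp1 was the higher one, with 27 and 32 UMIs (0.37) and an interval of the ratio of 0.808 to 2.42. The count lower ranged from 0 to 7 over the alternatives and the count higher from 0 to 2. The interval of Rps19bp1 spans no difference, while those of the 3 lower members do not. The lowest members were Rpl7l1 (42.9 and 44.3 CPM), Rps19bp1, Rpl39l, Rpl3l and Rpl10l.

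B cell-like cells (110 in WT, 51 in KO) had 9 of 83 members lower and 1 higher past the 25% threshold. Over all 5772 genes tested 31.5% were lower and 23.4% higher. The count lower was 22 with TMM factors and 23 over UMIs without ribosomal protein rows, and 2 with the stricter filter on cells or under stricter naming. Rps27, a zinc-binding small subunit protein, had 6616 CPM in WT and 4005 CPM in KO, a log2 ratio of -0.72. Rps29 had 5913 CPM and 4092 CPM (-0.53). The paralog of Rps27, Rps27l, went the other way, with 107 CPM (67 UMIs) in WT and 241 CPM (69 UMIs) in KO (1.11). Of its 69 KO UMIs, 39 lay in 5 cells and 19 in 1 cell. The 5 deepest cells, a split made after the data were seen, gave 14.9% of this class's UMIs in WT and 35.6% in KO, and their ribosomal protein shares were only 12.3% and 12.7%. The remaining B cell-like cells had shares of 23.8% and 22.4%. Under stricter naming the difference was turned, at 0.02.

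Astrocyte-like cells (256 in WT, 361 in KO) had 18 of 83 members higher in KO and 0 lower past the 25% threshold. Over all 11033 genes tested 12.7% were higher and 13.3% lower. The median of members was 0.25, against 0.00 over all genes, and 81 of 83 members lay above 0. Of the 18, 16 were among the 49 large subunit members and 2 among the 34 small subunit members, whose medians were 0.26 and 0.23. With cells thinned to 1000 UMIs the log2 ratio of the share was 0.15. The share was not higher in KO in cells of 500 to 1500 UMIs (117 in WT, 171 in KO), at 11.4% and 11.1%. It was higher in KO in the other bands with at least 20 cells in both libraries. Rpl22l1, the paralog of Rpl22, had 241 CPM in WT and 351 CPM in KO (0.53). Rpl36al, the paralog of X-linked Rpl36a, had 168 CPM and 242 CPM (0.51), which turned to -0.088 with cells thinned to 1000 UMIs. Rpl5, which with Rpl11 and 5S RNA binds Mdm2, had 322 CPM and 445 CPM (0.46), and Rpl11 690 CPM and 907 CPM (0.39).

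Rpl10, which is added late to the large subunit, had 377 CPM and 519 CPM (0.45) in astrocyte-like cells. Rpl26 (752 and 1021 CPM) was at 0.44. Rpl29 was at 0.40, Rpl23a at 0.38 and Rpl9 at 0.37. The most abundant member Rps29 had 1714 CPM and 1779 CPM (0.05). The other highest members were Rplp1 (0.21), Rps21 (0.20), Rpl41 (0.27) and Rps24 (0.24), and the lowest were Rps19bp1 (0.31), Rpl7l1 (0.06), Rpl3l, Rpl39l and Rpl10l, the last 3 with at most 1 UMI. The 12 microglial markers were all detected in these cells, at a summed 3295 CPM in WT and 2795 CPM in KO, against 17613 and 17947 CPM in microglia-like cells. Their part in the shift was not tested. With no limit on the mitochondrial share only 1 member passed, and with the stricter filter on cells 38 passed.

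Ependymal-like cells (184 and 453) had 7 of 83 members higher in KO and 0 lower, where 4.75% of 13504 genes were higher and 4.64% lower. The count higher was 31 with cells thinned to 1000 UMIs, 26 without the 5% of cells with the most UMIs, 11 with TMM factors, 3 over UMIs without mitochondrial and rRNA-linked rows, 1 under stricter naming and 0 at a fold of 1.5. The median of members was 0.23, and 82 of 83 lay above 0. Rpl27 had 569 CPM in WT and 737 CPM in KO (0.37), and Rps15a 819 and 1050 CPM (0.35). Rps27a, made as a fusion with ubiquitin, had 1027 and 1298 CPM (0.33), and Rpl24, Rpl23a and Rps26 were between 0.32 and 0.33. These genes were named after their values were seen. By depth the share was 11.3% in WT and 13.5% in KO in cells of 1500 to 3000 UMIs, 7.03% and 7.37% at 6000 to 12000 UMIs and 6.15% and 7.06% at 12000 UMIs or more.

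In the other classes few members passed. Endothelial-like cells (background 1.72% higher, 1.07% lower) and mural-like cells (4.1% higher, 5.08% lower) had 0 members past the 25% threshold in either direction, with medians of 0.05 and 0.12. CNS-associated macrophage-like cells had 1 lower and 0 higher of 83 (background 13.2% and 14%), with a median of 0.01, and the lower one was Rpl7l1 with 72 and 46 UMIs. Choroid plexus-like cells had 2 lower, Rpl35 and Rpl3, and 1 higher, Rps27rt, a retrotransposed copy of Rps27 (background 12.5% and 6.91%). Rps27rt was at 0.35 and turned to -0.34 with cells thinned to 1000 UMIs. Olfactory ensheathing-like cells had 2 lower and 2 higher of 83 (background 16.4% and 16.7%), and fibroblast-like cells 5 lower and 1 higher of 82 (background 30.4% and 20.3%). Macrophages at the brain's borders thus showed no shared shift of these genes, at shares of 11.6% and 11.5%.

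A few members kept a place away from the rest in every compared class, and they were singled out after their values were seen. Rpl35, Rps28, Rps29 and Rpl38 had a lower KO to WT ratio than the median member in 11 of 11 classes. Their median distances on the log2 scale were -0.27, -0.23, -0.21 and -0.09. Rpl23a and Rpl36al were above the median member in 11 of 11 classes, by medians of 0.17 and 0.11. The other members kept in all classes changed side between classes. Cells of all classes come from the same 2 libraries, so the 11 values are not independent.

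For Rpl35 the values in endothelial-like cells were 611 CPM in WT and 506 CPM in KO, a log2 ratio of -0.27, and in choroid plexus-like cells 469 and 358 CPM (-0.38). For Rps28 the endothelial-like values were 964 CPM and 840 CPM (-0.20), and for Rps29 2921 CPM and 2534 CPM (-0.20). In astrocyte-like cells, where most members were higher in KO, Rps28 was at -0.18 with 672 CPM and 591 CPM. In microglia-like cells Rpl35 stayed between -0.34 and -0.15 over the alternatives, Rps28 between -0.22 and -0.10 and Rps29 between -0.26 and -0.10. Among ribosomal RNA-linked rows Lars2 was lower in KO in 11 of 11 classes, with 263 CPM in WT and 141 CPM in KO in microglia-like cells (-0.85), and Gm42418 likewise (-0.75 in microglia-like cells, -0.17 in fibroblast-like cells). A further such row, AY036118, was at -0.69 in microglia-like cells but at -0.04 in fibroblast-like and 0.02 in T cell-like cells. Lars2 encodes a mitochondrial tRNA ligase, and its row and that of Gm42418 are known to collect ribosomal RNA reads in droplet data. Their part in the distance of Rpl35, Rps28 and Rps29 was not tested.

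**Figure D4:**
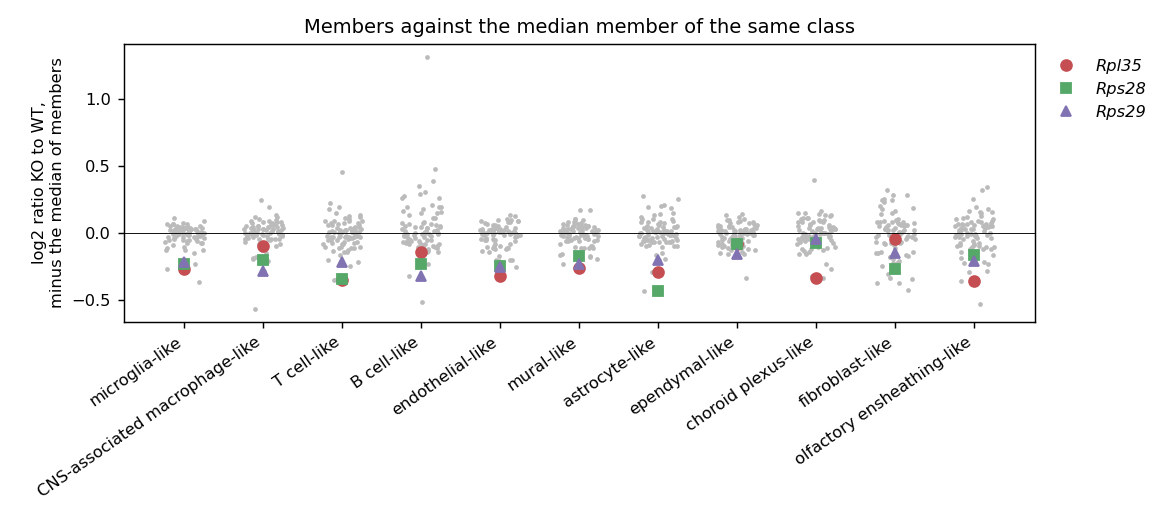
Log2 ratio of KO to WT of each member minus the median member of the same class (vertical axis), with Rpl35, Rps28 and Rps29 in colour and all other members in grey, by class. The 3 coloured members lie below 0 in all 11 classes, at medians of -0.27, -0.23 and -0.21.

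The make-up of the ribosomal protein pool also differed between classes. For each member the share of the class's ribosomal protein UMIs was taken, so that the height of the pool itself drops out. Among 48 members with at least 200 UMIs in every compared class and library, 5 had a range across classes of at least 2-fold (1 or more on the log2 scale, averaged over the libraries). The median range was 0.62 in WT and 0.59 in KO. The class with the highest share was the same in both libraries for 31 of 48 members, and the class with the lowest for 34 of 48.

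Rpl41, which encodes a peptide of few residues, had the widest range (1.61). It took 3.95% (WT) and 3.38% (KO) of the pool in choroid plexus-like cells and 1.3% and 1.1% in T cell-like cells. Rpl10 took 1.11% and 1.08% in microglia-like cells but 0.569% and 0.546% in T cell-like cells. Rps12 was lowest in ependymal-like cells, with 0.986% and 1.05%, against 2.14% and 2.12% in microglia-like cells. Rps29 took 4.84% and 4.02% in CNS-associated macrophage-like cells and 2.20% and 1.93% in T cell-like cells.

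Rpl38, known for its role in the translation of Hox mRNAs in embryos, was highest in ependymal-like cells (2.38% and 2.25%) and lowest in microglia-like cells (1.16% and 1.08%). The next members in order of range, all under 2-fold, were Rps15a (0.92) and Rps24 (0.91), highest in T cell-like cells, and Rplp1 (0.87), highest in microglia-like cells. Rplp1 took 3.71% and 3.86% of the pool there, against 1.92% and 2.24% in B cell-like cells. Rps18 (0.85) and Rps19 (0.85), the latter a gene mutated in Diamond-Blackfan anaemia, were higher in the lymphocyte classes. Microglia-like and CNS-associated macrophage-like cells were the pair of classes with the highest shares of Rplp1, Rps29 and Rps12 in both libraries.

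**Figure D5:**
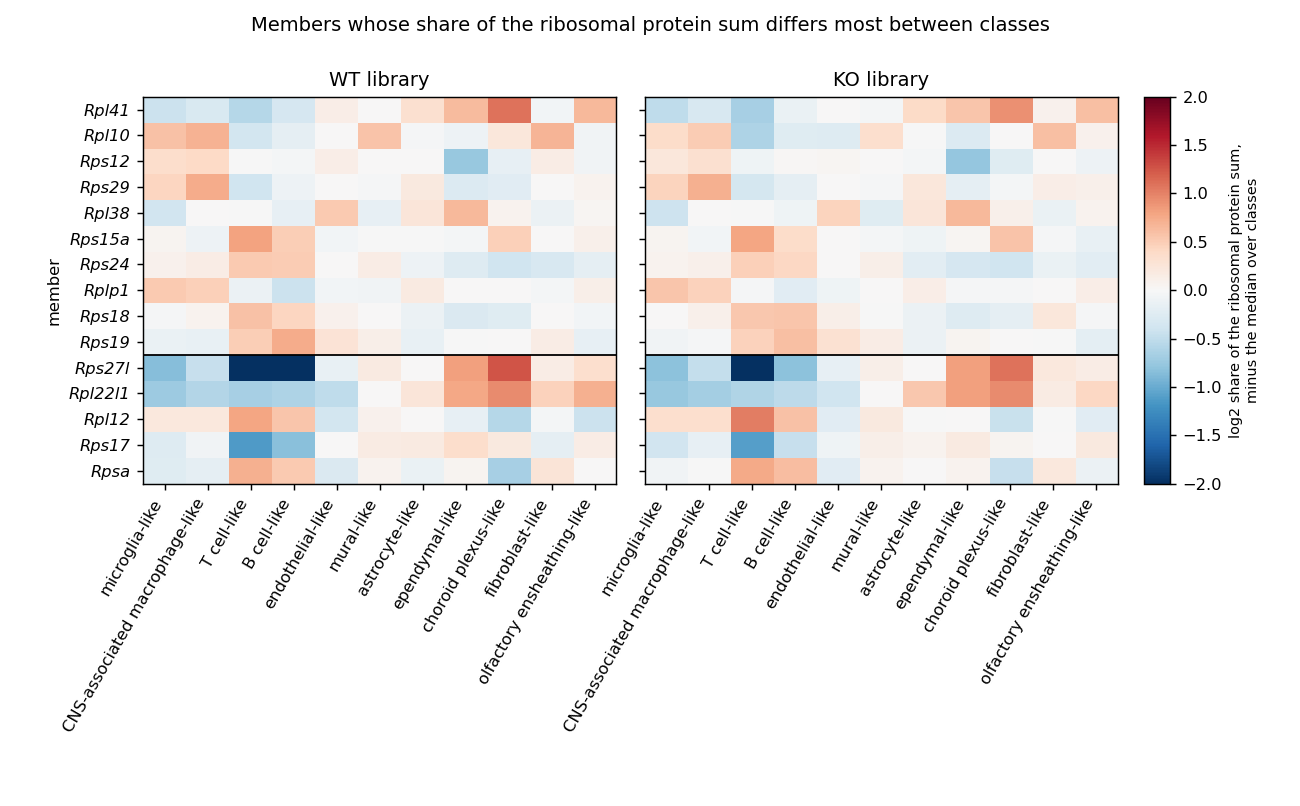
Log2 share of the ribosomal protein sum, minus the median over the 11 classes, for 10 members with the widest range among those with at least 200 UMIs in every class (above the line) and 5 members with fewer UMIs (below the line), in WT and KO; the colour scale stops at 2 in both directions. Rpl41 and Rps27l are highest in choroid plexus-like cells and lowest in T cell-like cells in both libraries.

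Among the compared classes lymphocytes also leaned less to the large subunit. Large subunit members had 1.13 (WT) and 1.17 (KO) UMIs per small subunit UMI in B cell-like cells and 1.15 and 1.18 in T cell-like cells. The ratio was 1.26 and 1.28 in microglia-like cells, 1.32 and 1.36 in astrocyte-like cells and 1.40 and 1.37 in choroid plexus-like cells. Other blood cell classes, with too few cells for comparison, were not all low. Neutrophil-like cells had 1.15 and 1.19, monocyte-like cells 1.16 and 1.22, and dendritic cell-like cells 1.19 and 1.21. NK cell-like cells (12 and 10 cells), which are lymphocytes too, had 1.26 and 1.24, near the microglia-like values. Erythroid-like cells (13 and 14 cells) had 1.36 and 1.31. Sums of UMIs per gene depend on capture, so these ratios compare classes and do not count subunits.

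Paralogs of ribosomal proteins showed the widest differences, at lower counts. Rps27l, which p53 induces in other cells, had 7.30 UMIs per 100 of Rps27 in microglia-like cells in WT and 8.21 in KO. In T cell-like cells it had 1.69 (1.40 to 2.02) and 1.99 (1.63 to 2.41), and in choroid plexus-like cells 31.0 (28.3 to 33.9) and 27.6 (25.7 to 29.7). Its own level differed less than its partner's: 127 CPM in WT T cell-like cells and 341 CPM in WT choroid plexus-like cells, where Rps27 had 7481 and 1098 CPM.

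Rpl22l1, whose mRNA the Rpl22 protein can repress, had 30.4 UMIs per 100 of Rpl22 in WT microglia-like cells and 29.2 in KO. It reached 113 (103 to 124) and 102 (94.8 to 110) in choroid plexus-like cells, so that it was there near the level of its partner. In astrocyte-like cells the value was 61.7 (53.6 to 70.9) in WT and 76.2 (67.9 to 85.4) in KO, and these intervals overlap. Rpl36al had 51.0 and 55.9 UMIs per 100 of Rpl36a in microglia-like cells. Rpl7l1 had 7.58 and 7.39 per 100 of Rpl7, and Rpl39l 0.25 and 0.120 per 100 of Rpl39. Choroid plexus-like cells thus held the largest relative amounts of Rps27l and Rpl22l1 and only 3 UMIs of Rpl39l.

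Genes that work with the ribosome were counted from 10 lists. Ribosome parts that the symbol rule leaves out, such as Fau and Rack1, had 0 of 3 past the 25% threshold in microglia-like cells. Fau had 3012 CPM in WT and 3296 CPM in KO (0.13), and Rack1, a scaffold on the small subunit, had 605 and 649 CPM (0.10), both near the median of the members. Other mRNAs with a TOP motif, such as elongation factors, had 0 of 24 past the ratio in microglia-like cells, with a median of 0.06, from Vim (-0.14) to Zfas1 (0.25). Ribosome biogenesis genes had 0 of 30 (median 0.06, from Gnl3 at -0.16 to Sbds at 0.19). Initiation factors had 0 of 22 (median 0.04, from Eif5 at -0.13 to Eif3b at 0.17). Mitochondrial ribosomal proteins, which build the separate ribosome of mitochondria, had 0 of 78 (median 0.09, from Mrpl42 at -0.02 to Mrpl51 at 0.18). These medians stand beside 0.00 over all genes tested in these cells and 0.11 over the members.

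Among regulators 3 genes passed the threshold in microglia-like cells, where 2.57% of all genes did. Myc, a transcription factor that raises ribosome production, had 27.0 CPM in WT and 18.8 CPM in KO (-0.36) and was 1 of 22 genes of the mTORC1 list to pass, the highest being Lamtor4 (0.19). In the integrated stress response list Ddit4, an inhibitor of mTORC1, had 114 and 70.9 CPM (-0.62). Eif2ak2, the interferon-induced kinase PKR, had 50.8 and 131 CPM (1.22). These were the 2 of 13 measured genes to pass in that list, which had a median of -0.04. The list of ribosome quality control had 0 of 14 (median 0.03, from Map3k20 at -0.15 to Rnf10 at 0.16) and the S6 kinases 0 of 8 (median -0.01, from Rps6kc1 at -0.22 to Rps6kb1 at 0.14). The ribosomal RNA-linked and RNA quality list had 4 of 6 lower (median -0.64, from Lars2 at -0.85 to Gm26917 at 0.19).

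In T cell-like cells Eif2ak2 was higher in KO as well, with 19 and 41 UMIs (1.02), and Rheb, which activates mTORC1, had 63 and 94 UMIs (0.73). Beside these counts stand 18.7% higher and 12.2% lower over all genes tested in T cell-like cells. Other TOP mRNAs had 1 of 24 higher, Snhg12 (0.40), and 0 lower, with a median of -0.03 and Nap1l1 lowest at -0.32. Biogenesis genes had 4 higher and 4 lower of 29 (median 0.07, from Eif6 at -0.44 to Gnl3 at 0.52), and mitochondrial ribosomal proteins 9 higher and 5 lower of 72 (median 0.02). In astrocyte-like cells, where 12.7% of all genes were higher and 13.3% lower, 17 of 77 mitochondrial ribosomal proteins were higher and 1 lower (median 0.17), 5 of 22 initiation factors higher and 0 lower (median 0.16), and 1 of 24 other TOP mRNAs higher and 1 lower (median 0.14). The medians of these 3 lists lay between that of all genes (0.00) and that of the members (0.25).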

How the data were processed

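What the authors deposited are matrices of raw counts of UMIs, by gene and cell barcode. The file headers name Cell Ranger 7.0.1 as their source, and the submitters' processing notes name STAR, Seurat 3.1.1 and GRCm38 (mm10). Whether reads in introns were counted, which bears on every share of UMIs, and the annotation release are not given in the sources used here. Cells were kept with at least 500 UMIs, 300 genes and at most 10% mitochondrial UMIs. A cell's marker share per class was divided by the median of that class over 5 rounds. The top class needed at least 3 markers and a score of 0.25, with the second class at most 0.5 of it, and this rule for scores was set after the data were seen. It left out 3009 and 3083 cells with mixed markers, which covers doublets of unlike cells. No doublet caller was run, so doublets of like cells remain. Another 1847 and 1972 cells lay near the limit for the second class.

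UMIs were summed per class and library, and a class was compared where both libraries held 50 or more of its cells. Ratio intervals are exact conditional intervals, and share intervals are Clopper-Pearson. The calculations were tested on simulated data. Python 3.11.15, scipy 1.17.1 and, for TMM factors, edgeR 4.0.16 were used. Named genes are the 5 highest and 5 lowest members and up to 10 members past the 25% threshold each way in microglia-like cells and the classes of highest and lowest share, the 10 members of widest range across classes, paralogs, X-linked and P-stalk members and up to 3 ends of each list. Some named members and list genes are not reported here. Members and lists were chosen with earlier results of these data known. Alternatives changed the cell filter, naming, depth, denominator, pseudocount, minimum UMIs and fold.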

Additional observations from a re-analysis of the deposited data

Results flagged for a closer look

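The ribosomal protein share went in opposite directions in 2 classes under the same comparison of KO with WT. In astrocyte-like cells it was higher in KO, at a log2 ratio of 0.25, and in B cell-like cells it was lower in KO, at -0.22. The intervals of both ratios exclude no difference for counting error, but with 1 library per group the difference between the classes was not tested. The B cell-like value was -0.07 without the 5% of cells with the most UMIs and 0.02 under stricter naming. The astrocyte-like value was 0.15 with cells thinned to 1000 UMIs and 0.15 with no limit on the mitochondrial share. Other alternatives gave larger differences. The astrocyte-like value was higher with the stricter filter on cells and under stricter naming, and the B cell-like value was lower under looser naming. In astrocyte-like cells of 500 to 1500 UMIs the share was not higher in KO, at 11.4% in WT and 11.1% in KO.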

How the results depend on the processing

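No paired analysis was possible because each group has 1 library. The classes share those 2 libraries, so a feature of a library reaches all of them, and mice per library are not stated. The cause of each change below was not tested. Depth limits mainly rare paralogs and the B cell-like, fibroblast-like and olfactory ensheathing-like classes. Cells of 3000 to 6000 UMIs were chosen as an alternative after seeing the data. With under 20 cells of a class in a library that alternative gave no value. Values are log2 ratios of KO to WT or numbers of members past the 25% threshold. Those not listed moved by less than their counting interval or, for numbers, by at most 1.5 times. With the stricter filter on cells, the log2 ratio of the share was 0.10 in microglia-like, -0.080 in B cell-like, 0.27 in astrocyte-like, 0.17 in ependymal-like and 0.13 in fibroblast-like cells. The median of members was -0.061 in B cell-like cells. Members higher numbered 3 in B cell-like and 38 in astrocyte-like cells. Members lower numbered 2 in B cell-like and 1 in astrocyte-like cells. Without the 5% of cells with the most UMIs, the log2 ratio of the share was 0.062 in microglia-like, -0.046 in macrophage-like, -0.15 in T cell-like, -0.075 in B cell-like and 0.27 in ependymal-like cells. The median of members was 0.077 in microglia-like and -0.066 in B cell-like cells. Members higher numbered 0 in T cell-like, 2 in B cell-like and 26 in ependymal-like cells. Members lower numbered 5 in T cell-like and 2 in B cell-like cells. Members with a 2-fold range numbered 3. Among cells of 3000 to 6000 UMIs, the log2 ratio of the share was -0.044 in microglia-like, -0.024 in T cell-like, -0.11 in B cell-like and -0.026 in endothelial-like cells. The median of members was -0.036 in microglia-like cells. Members higher numbered 4 in macrophage-like, 2 in T cell-like and 4 in B cell-like cells. Members lower numbered 1 in microglia-like, 5 in macrophage-like, 1 in T cell-like and 5 in B cell-like cells. Over UMIs without mitochondrial and rRNA-linked rows, the log2 ratio of the share was 0.085 in microglia-like, -0.12 in T cell-like, 0.23 in astrocyte-like and 0.20 in ependymal-like cells. Members higher numbered 3 in ependymal-like cells. With each cell thinned to 1000 UMIs, the log2 ratio of the share was -0.035 in macrophage-like, -0.14 in T cell-like, -0.13 in B cell-like, -0.024 in endothelial-like, 0.15 in astrocyte-like and 0.25 in ependymal-like cells. Members higher numbered 1 in microglia-like, 1 in macrophage-like, 2 in T cell-like, 2 in B cell-like and 31 in ependymal-like cells. Members lower numbered 5 in macrophage-like, 7 in T cell-like and 4 in astrocyte-like cells. Rpl36al was at -0.088 in astrocyte-like cells. Rps27rt was at -0.34 in choroid plexus-like cells. With a pseudocount of 1 CPM, members lower numbered 1 in microglia-like cells. Under stricter naming, the log2 ratio of the share was 0.0016 in macrophage-like, 0.021 in B cell-like, 0.31 in astrocyte-like and 0.18 in ependymal-like cells. The median of members was 0.030 in B cell-like cells. Members higher numbered 1 in macrophage-like, 5 in B cell-like, 32 in astrocyte-like and 1 in ependymal-like cells. Members lower numbered 2 in macrophage-like and 2 in B cell-like cells. Under looser naming, the log2 ratio of the share was -0.023 in macrophage-like, -0.092 in T cell-like, -0.26 in B cell-like and 0.24 in ependymal-like cells. Members higher numbered 0 in T cell-like and 11 in ependymal-like cells. Members lower numbered 17 in B cell-like cells. With at least 200 UMIs, members higher numbered 0 in T cell-like and 0 in B cell-like cells. Members lower numbered 0 in macrophage-like cells. At a fold of 1.5, members higher numbered 0 in T cell-like, 0 in astrocyte-like and 0 in ependymal-like cells. Members lower numbered 0 in macrophage-like, 0 in T cell-like and 1 in B cell-like cells. With no limit on mitochondrial share, the log2 ratio of the share was -0.10 in T cell-like, 0.15 in astrocyte-like, 0.24 in ependymal-like, 0.049 in choroid plexus-like and 0.012 in fibroblast-like cells. Members higher numbered 1 in astrocyte-like cells. With TMM factors, members higher numbered 0 in T cell-like and 11 in ependymal-like cells. Members lower numbered 5 in T cell-like and 22 in B cell-like cells. With a pseudocount of 50 CPM, members higher numbered 0 in T cell-like and 4 in ependymal-like cells. Over UMIs without the ribosomal protein rows, members higher numbered 11 in ependymal-like cells. Members lower numbered 5 in T cell-like and 23 in B cell-like cells. With at least 20 UMIs, members with a 2-fold range numbered 12. The ratio of T cell-like to microglia-like share was 3.14 (WT) and 2.72 (KO) with the stricter filter on cells, and 2.67 (KO) without the 5% of cells with the most UMIs. It was 2.81 (WT) and 2.85 (KO) among cells of 3000 to 6000 UMIs, and 3.13 (WT) and 2.71 (KO) over UMIs without mitochondrial and rRNA-linked rows. Thinning to 1000 UMIs gave 3.13 (WT) and 2.67 (KO), stricter naming 3.06 (WT) and 2.67 (KO), looser naming 3.04 (WT) and 2.67 (KO), and no limit on mitochondrial share 3.07 (WT).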
